A study of Mus musculus with 6 samples.

Results

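Leukocyte integrins are adhesion receptors made of 1 alpha and 1 beta chain, and the genes described here encode 10 such chains: Itgb2, Itgal, Itgam, Itgax, Itga4, Itgb1, Itgb7, Itga6, Itgav and Itga2b. They were read on all probe sets whose platform annotation gives 1 of these symbols and no other, each probe set kept apart. This gave 25 of the 45101 probe sets on the array, of which 20 passed the filter on dim signals, at least 1 for each of the 10 genes. The RNA came from myeloid cells of female HdcGFP mice (C57BL/6 background), taken from marrow of femur and tibia and sorted for CD11b, Gr1 and the fluorescence of HdcGFP. Hdc encodes the enzyme that makes histamine. The GFP_plus group holds 3 arrays of cells with a positive or high reporter signal, and the GFP_min group 3 arrays of cells with a negative or low one. Both groups thus carry the same reporter, and the labels give neither the construct behind it, the age of the mice nor whether replicates a, b and c came from separate animals. P-values therefore rest on the spread among these samples alone, and that spread may be technical.

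Each integrin works as a pair, and the alpha chain largely sets what the pair binds. Itgb2 (CD18) is the shared beta chain of the leukocyte integrins LFA-1 (with Itgal), Mac-1 (with Itgam) and p150,95 (with Itgax), which bind ICAM-type ligands, complement fragments and fibrinogen and let myeloid cells arrest on endothelium and take up particles. Itga4 pairs with Itgb1 into a receptor for VCAM-1 and fibronectin that holds blood cells in the marrow, or with Itgb7 into a receptor for the gut addressin MAdCAM-1. Itgb7 was 13.3-fold lower in GFP_plus, 2 of 3 tested probe sets of Itgb1 and 3 of 5 of Itga4 were lower, and Itgax was 3.48-fold higher. Of Itgal 1 of 2 probe sets was higher, and neither Itgb2 nor Itgam passed the test.

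The 6 arrays were alike in overall signal, with medians of 2.82 to 2.88 on the deposited log2 scale. Arrays of the same group correlated at 0.996 to 0.997 over all probe sets, and arrays of different groups at 0.978 to 0.982. Hdc rose by 0.82 in GFP_plus (12.01 ± 0.06 against 11.19 ± 0.03 in GFP_min, log2, mean ± SD, n = 3 each). Its other probe set rose by 0.59 (11.24 ± 0.14 against 10.65 ± 0.11). Since the cells were sorted on the HdcGFP signal, a rise of Hdc is no independent result. The description of GFP_min replicate b reads Gr1-negative where its other label reads Gr1-positive, so values without it are given where they change a call. Markers of other myeloid cells differed between the groups, those of monocytes strongly. Of 13 tested monocyte markers 12 fell in GFP_plus, and their mean level over the 13 genes with a probe set was 7.15 to 7.29 on GFP_plus arrays against 11.34 to 11.46 on GFP_min arrays (log2), with none of them below the array medians on all arrays of a group. Of 11 tested mature neutrophil markers 9 rose, with mean levels of 12.81 to 12.85 in GFP_plus and 12.40 to 12.42 in GFP_min. Their median difference was 0.55 log2, and S100a8 (0.002) and S100a9 (−0.03) did not pass. Centring on poly-A control RNAs shifted the median of all differences by −0.41. That is more in size than the rises of Mmp8 (0.19), Ceacam10 (0.29) and Mmp9 (0.30). In sorted bulk samples, fewer cells of a type and less RNA per cell cannot be told apart.

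Of the 20 tested integrin probe sets, 4 were called higher and 6 lower in GFP_plus (limma, Benjamini-Hochberg adjusted p under 0.05 over all 22956 tested probe sets). The 4 include Itga2b, which passed the filter only through GFP_plus, where it was high, and which was not tested when all 6 arrays had to pass. That stricter filter gave 3 higher and 7 lower calls, 55.6% of the integrin probe sets, against 46.9% of all tested probe sets. The 10 calls of the main fit are 50%, where 44.6% of all tested probe sets were called, 21.7% higher and 22.9% lower. The share of called integrin probe sets thus lay near the background. These 3 percentages over all tested probe sets are also the background for the marker counts above and below. Their median difference was −0.04 log2, against 0.04 over all tested probe sets. By at least 1 log2, 2 integrin probe sets were higher and 4 lower, where 1.90% and 6.82% of all tested probe sets were. In 12 of the 20 the arrays of the groups did not overlap, against 55.3% of all tested probe sets.

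**Figure D1:**
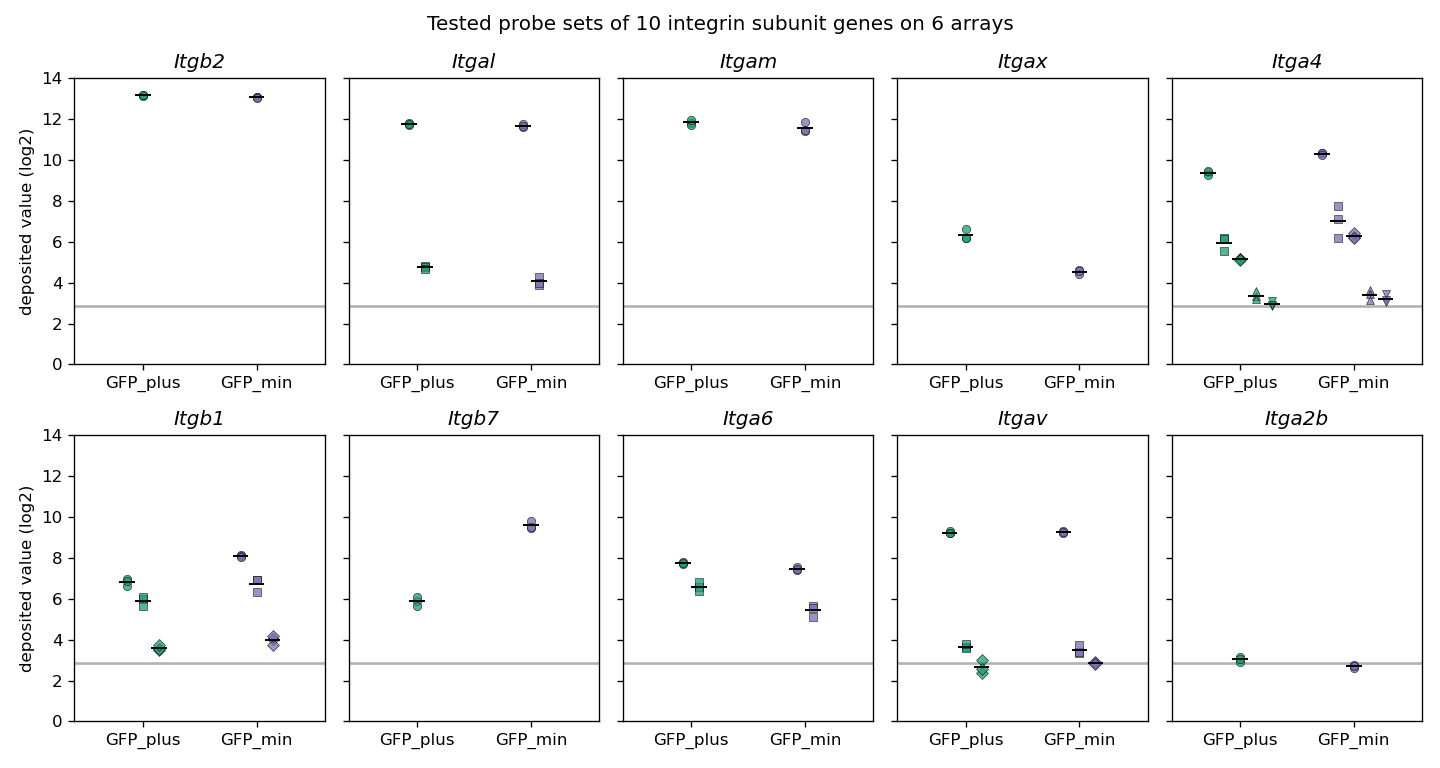
Deposited log2 values (vertical axis) of the 20 tested probe sets of the 10 integrin genes on the 3 GFP_plus and 3 GFP_min arrays. Each point is an array, each marker shape within a panel a probe set, black bars are group means and the grey band spans the array medians. Itgb7 shows the widest gap between the groups, while Itgb2 and Itgam differ little between them.

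The beta-2 chain and its alpha partners. Itgb2, without which none of the beta-2 integrins reaches the cell surface, read 13.18, 13.15 and 13.19 on the GFP_plus arrays and 13.09, 13.10 and 13.04 on the GFP_min arrays. The groups did not overlap, yet the gap was small, at 0.10 (SE 0.04, 95% confidence interval 0.01 to 0.18), and did not pass (limma adjusted p = 0.0562). It passed under array weights (0.11, limma adjusted p = 0.0185), quantile normalization (0.18), median centring (0.30) and in the fit of 1 mean value per gene (adjusted p = 0.0318). It also passed, in opposite directions, at 0.62 with centring on ribosomal protein genes and at −0.31 with centring on the poly-A control RNAs. In the remaining settings Itgb2 did not pass, among them the fit without the intensity trend (limma adjusted p = 0.351) and that with the replicate block (0.197).

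Itgam encodes CD11b, the antigen on which all cells were gated, so its presence in both groups is set by the sort. Its values were 11.83, 11.72 and 11.97 in GFP_plus and 11.85, 11.44 and 11.46 in GFP_min. GFP_min replicate a lay among the GFP_plus arrays and the other GFP_min arrays lay below them. The difference was 0.26 (95% interval 0.02 to 0.50, limma adjusted p = 0.0745). Without GFP_min replicate a it was 0.39 and passed (adjusted p = 0.00400), it passed with median (0.46) and ribosomal (0.78) centring, and with poly-A centring it turned to −0.15.

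Itgal encodes CD11a, the alpha chain of LFA-1, with which leukocytes grip ICAM-1. Its brighter probe set (1435560_at) gave 11.83, 11.74 and 11.78 in GFP_plus and 11.61, 11.75 and 11.67 in GFP_min, and these ranges overlapped slightly. The difference of 0.10 (95% interval −0.01 to 0.22) did not pass (limma adjusted p = 0.139), but passed as higher with array weights (0.14), median (0.31) and ribosomal (0.63) centring and as lower with poly-A centring (−0.30). The other probe set of the gene (1425367_at) read 4.83, 4.77 and 4.69 in GFP_plus against 3.91, 4.28 and 3.99 in GFP_min. There the groups were apart, and the rise of 0.70 (SE 0.14, limma adjusted p = 0.00300) passed. The 2 probe sets thus disagreed on whether Itgal differed. That call was lost with poly-A centring (0.30, adjusted p = 0.177).

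Itgax encodes CD11c, the alpha chain of p150,95, best known from dendritic cells but also carried by marrow and blood myeloid cells. It read 6.17, 6.19 and 6.61 on the GFP_plus arrays, against 4.61, 4.42 and 4.55 on the GFP_min arrays. Every GFP_plus array lay above every GFP_min array, by far more than the group SDs of 0.25 in GFP_plus and 0.10 in GFP_min. The rise was 1.80 log2 (SE 0.16, limma adjusted p = 1.40e-05) and stayed between 1.39 and 2.32, with its call, under all 16 alternatives. The dendritic cell markers went the other way between the same samples. Of 10 tested, 9 fell in GFP_plus and 0 rose, among them the growth factor receptor Flt3 (2.88 ± 0.21 in GFP_plus and 6.54 ± 0.23 in GFP_min) and Cd209a (at least 19.0-fold lower, being under the median of each GFP_plus array). Their mean over 13 genes was 3.52 to 3.63 in GFP_plus and 5.38 to 5.68 in GFP_min, and Xcr1, Zbtb46 and Ciita were too dim to be tested. The marker genes given as examples here were picked after their values were seen. Basophil and mast cell markers rose with Itgax in 7 of 8 tested, with mean levels over 11 genes of 4.57 to 4.65 in GFP_plus and 3.30 to 3.36 in GFP_min, and Il4 and Il6 too dim to be tested. Of these 7, Cpa3 and Fcer1a were below the array medians in GFP_min and so were tested only through the group where they were high. The same holds in reverse for Cd209a and Irf4 among the 9 dendritic cell markers that fell. Eosinophil markers rose in both that were tested, Prg2 by 3.34 and Siglecf by 1.26 log2, with mean levels over 7 genes of 3.60 to 3.78 in GFP_plus and 2.89 to 2.95 in GFP_min, while Epx, Prg3, Ccr3, Il5ra and Alox15 were too dim to be tested. The part of these cells in the Itgax value was not tested.

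Since Itgal, Itgam and Itgax compete for the same beta chain, their changes were also set against each other within each array, a measure that adding a constant to an array cannot move. The probe set of Itgax minus that of Itgal was −5.65, −5.55 and −5.17 in GFP_plus and −7.00, −7.33 and −7.12 in GFP_min. Itgax thus gained 1.69 log2 on Itgal and, by the same measure, 1.54 on Itgam, with no overlap between groups in either case (1.93 and 1.77 after quantile normalization, a setting chosen after seeing the data). Itgal against Itgam gave −0.01, 0.02 and −0.20 in GFP_plus and −0.24, 0.31 and 0.22 in GFP_min, and these values were intermingled, with a difference of −0.16. A level of one probe set cannot be read against that of another, so only the change of these gaps between groups carries meaning. The exact permutation test (two-sided) gave p = 0.1 for both Itgax pairs, the smallest that 3 against 3 allows, and 0.5 for Itgal against Itgam. Adjusted over the 4 pairs compared in this way these were 0.133 and 0.5, so no pair could pass.

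**Figure D2:**
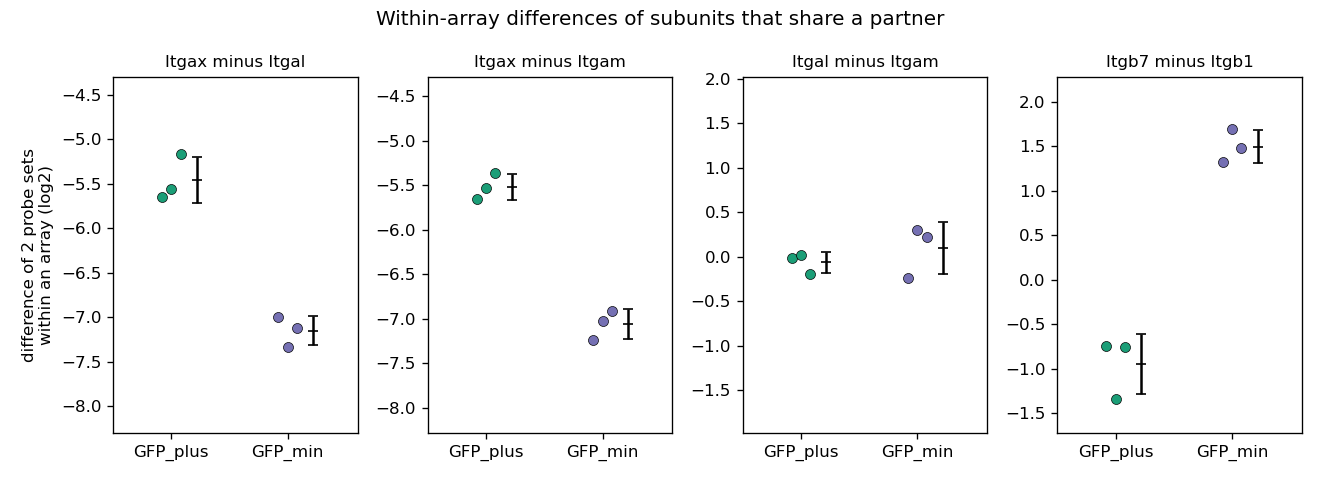
Difference of 2 probe sets within an array (log2, vertical axis) for 4 pairs of subunits that share a partner chain, by group. Points are the 3 arrays of a group and the bars to their right give mean ± SD. The GFP_plus and GFP_min arrays are apart for the pairs with Itgax and for Itgb7 minus Itgb1, and mixed for Itgal minus Itgam.

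The alpha-4 chain and its beta partners. The promoters of the 3 genes of this group are shown because all 3 were lower in GFP_plus, and that of Itgax because it was higher. The windows run from 250 bases before to 50 bases after the RefSeq start site on GRCm38.p6, and the strand is that of the gene. Capitals mark matches on either strand to 5 short motifs: GAGGAA (the ETS core as bound by PU.1), TTGCNNAA (C/EBP), TGTGGT (RUNX), TGANTCA (AP-1) and GGGCGG (Sp1). No 2 matches of different motifs overlapped.
Itgb7, chr15:102231886-102232185, minus strand: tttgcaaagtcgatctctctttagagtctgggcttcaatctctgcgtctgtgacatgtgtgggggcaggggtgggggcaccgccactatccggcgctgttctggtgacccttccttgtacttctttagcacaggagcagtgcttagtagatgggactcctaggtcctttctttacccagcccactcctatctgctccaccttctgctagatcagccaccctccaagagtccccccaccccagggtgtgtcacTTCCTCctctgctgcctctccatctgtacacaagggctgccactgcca
Itgb1, chr8:128685404-128685703, plus strand: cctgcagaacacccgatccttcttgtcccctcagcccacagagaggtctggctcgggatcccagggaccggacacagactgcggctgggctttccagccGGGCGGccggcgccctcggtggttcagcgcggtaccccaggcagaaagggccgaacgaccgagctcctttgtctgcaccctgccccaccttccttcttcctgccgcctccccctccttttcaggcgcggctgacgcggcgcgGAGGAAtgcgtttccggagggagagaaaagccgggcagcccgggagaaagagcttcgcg
Itga4, chr2:79255176-79255475, plus strand: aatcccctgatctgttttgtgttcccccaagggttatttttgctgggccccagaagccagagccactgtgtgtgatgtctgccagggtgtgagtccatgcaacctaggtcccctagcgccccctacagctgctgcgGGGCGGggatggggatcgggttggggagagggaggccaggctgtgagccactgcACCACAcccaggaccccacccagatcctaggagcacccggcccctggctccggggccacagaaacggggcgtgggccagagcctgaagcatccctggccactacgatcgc
Itgax, chr7:128129300-128129599, plus strand: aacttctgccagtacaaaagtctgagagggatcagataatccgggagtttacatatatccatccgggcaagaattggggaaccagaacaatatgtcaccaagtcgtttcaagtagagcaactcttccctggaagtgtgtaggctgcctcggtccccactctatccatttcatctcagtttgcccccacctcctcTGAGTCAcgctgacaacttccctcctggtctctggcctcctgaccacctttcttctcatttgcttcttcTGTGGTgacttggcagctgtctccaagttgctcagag
The Itgb7 window holds 1 ETS core, on the strand opposite to the gene, that is the plus strand of the genome, at position 3 after the start. The Itgb1 window holds an ETS core beginning at position −9 and an Sp1 motif at −151, while the Itga4 window holds an Sp1 motif at −114 and a RUNX motif at −60. The Itgax window differs from all 3 in an AP-1 motif at −56, counted on both strands because it is its own reverse complement, beside a RUNX motif at 14. Of all 32851 promoter windows of the same length, 28.3% hold the ETS core, 16.8% the RUNX, 7.81% the AP-1 and 35.7% the Sp1 motif. The C/EBP motif, found in 10.8% of all windows, was not in the letters of these 4. A match describes letters and is no evidence of binding. Windows were found for 7 of the 10 genes.

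Itgb7, the beta chain of the gut-homing receptor and of the epithelial receptor with Itgae, had the largest difference of the 20 tested integrin probe sets. It read 5.87, 5.63 and 6.10 in GFP_plus and 9.48, 9.80 and 9.52 in GFP_min. All GFP_plus arrays lay far below all GFP_min arrays and still above the array medians. The fall of 3.73 log2 (SE 0.14, 95% interval −4.05 to −3.41, limma adjusted p = 4.54e-08) stayed between −4.13 and −3.20 under all 16 alternatives, and was −3.63 without GFP_min replicate b.

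Itgb1, the beta chain shared by most matrix-binding integrins, had 6 probe sets, of which 3 were tested. The brightest (1426918_at) gave 6.61, 6.97 and 6.86 in GFP_plus against 8.16, 8.11 and 8.04 in GFP_min, with the groups well apart, and fell by 1.29 (SE 0.12, limma adjusted p = 2.01e-05). The next (1452545_a_at) gave 5.98, 5.66 and 6.10 in GFP_plus against 6.93, 6.94 and 6.35 in GFP_min and fell by 0.83 (adjusted p = 0.00564), a call that was lost with ribosomal centring (−0.30, adjusted p = 0.173). The third (1427771_x_at), whose name marks it as able to bind other transcripts, read 3.58 ± 0.13 in GFP_plus and 3.98 ± 0.23 in GFP_min (SD, n = 3 each) and missed the threshold (−0.40, limma adjusted p = 0.0501). It passed without GFP_min replicate b (−0.53, adjusted p = 0.0176) or GFP_plus replicate c (−0.47, adjusted p = 0.0444), without the intensity trend (adjusted p = 0.0468), with array weights (−0.51), with the filter on all 6 arrays (adjusted p = 0.0409) and with poly-A centring (−0.81), and turned to 0.13 with ribosomal centring. The untested ones, 1426919_at, 1426920_x_at and 1438119_at, stayed between 1.23 and 2.47 on all arrays, below the array medians.

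Itga4 (CD49d) is the alpha chain common to both receptors, and all 5 of its probe sets were tested. The brightest (1436037_at) read 9.41, 9.28 and 9.45 in GFP_plus and 10.35, 10.33 and 10.27 in GFP_min, a fall of 0.94 (SE 0.07, limma adjusted p = 5.85e-06) with no overlap. Probe set 1421194_at read 5.16, 5.17 and 5.12 in GFP_plus and 6.23, 6.45 and 6.17 in GFP_min and fell by 1.13 (SE 0.13, adjusted p = 9.92e-05). In both, all GFP_plus arrays lay below all GFP_min arrays. The third called probe set (1456498_at) was scattered, at 5.55, 6.19 and 6.14 in GFP_plus and 7.74, 6.16 and 7.12 in GFP_min, where replicate b lay within the GFP_plus range. Its fall of 1.05 (limma adjusted p = 0.0306) lost its call without GFP_min replicate a (−0.68, adjusted p = 0.0983), without GFP_min replicate c (−0.99, adjusted p = 0.0782) or without GFP_plus replicate a (−0.84, adjusted p = 0.114), and also without the intensity trend and with quantile, median or ribosomal scaling. The 2 dimmest, 1427615_at and 1450155_at, differed by −0.05 (95% interval −0.40 to 0.30) and −0.25 (−0.53 to 0.03) and did not pass.

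Within arrays, Itgb7 minus Itgb1 was −0.74, −1.34 and −0.76 in GFP_plus and 1.32, 1.69 and 1.48 in GFP_min. Itgb7 thus lost 2.44 log2 on the other beta partner of Itga4, with no overlap (exact permutation p = 0.1, the smallest possible, 0.133 adjusted over the 4 pairs). The monocyte and dendritic cell markers given above fell between the same samples as these 3 genes. Of 5 tested T and NK cell markers Klrd1 and Gzma fell, while Cd3d (0.31), Lat (0.15) and Cd2 (0.02) did not pass. The 40% called lay near the 44.6% of all tested probe sets, and the median difference was 0.02. Mean levels over 9 genes were 3.19 to 3.39 in GFP_plus and 3.52 to 3.69 in GFP_min, with Cd3e and Cd3g below the array medians. The part of these cells in the falls was not tested.

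**Figure D3:**
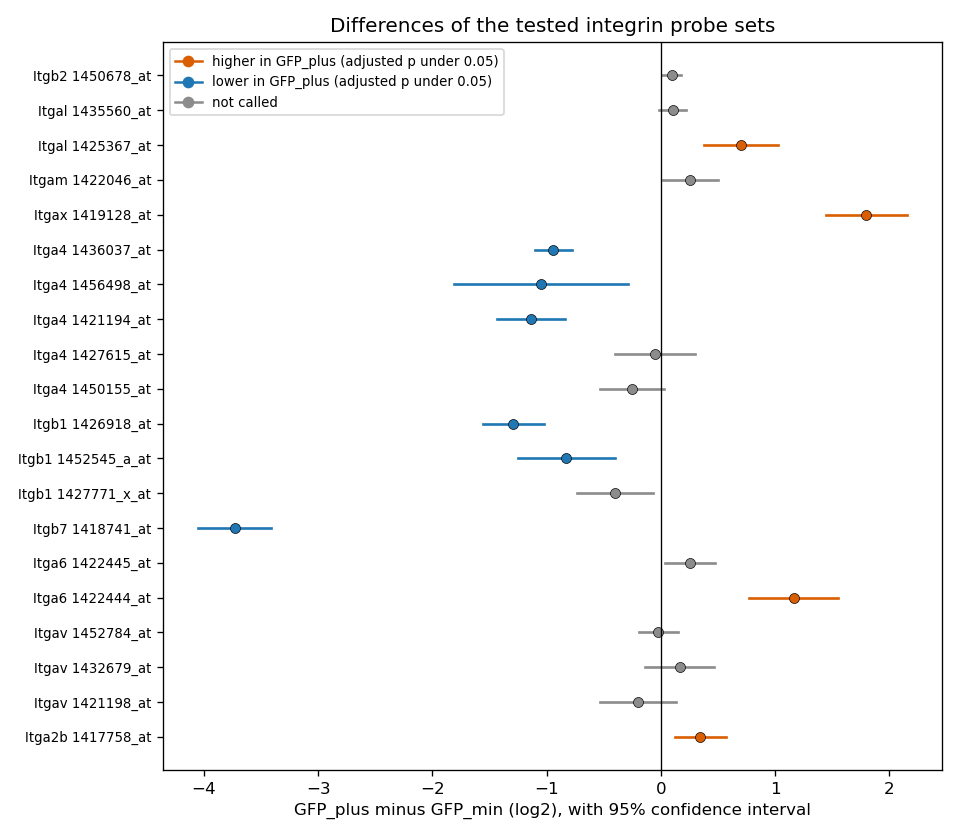
GFP_plus minus GFP_min (log2, horizontal axis) of the 20 tested integrin probe sets with 95% confidence intervals from limma. Colours give the call at an adjusted p under 0.05. The 6 lower calls belong to Itga4, Itgb1 and Itgb7, and the 4 higher calls to Itgal, Itgax, Itga6 and Itga2b.

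Itga6, Itgav and Itga2b. Itga6 (CD49f), the laminin receptor chain of many stem and progenitor cells, had 2 probe sets. The dimmer (1422444_at) read 6.59, 6.37 and 6.82 in GFP_plus against 5.63, 5.53 and 5.12 in GFP_min and rose by 1.16 (SE 0.18, limma adjusted p = 0.000491), with its call kept under all 16 alternatives. The brighter (1422445_at) read 7.79, 7.69 and 7.73 in GFP_plus against 7.55, 7.43 and 7.46 in GFP_min. It did not overlap either, but its difference of 0.26 (95% interval 0.03 to 0.48) just missed the threshold (limma adjusted p = 0.0596). It passed as higher without the intensity trend (adjusted p = 0.0399), with array weights (0.27) and with quantile (0.36), median (0.46) and ribosomal (0.78) scaling, and turned to −0.15 with poly-A centring. The size of the Itga6 difference therefore depended on the probe set. Of 7 tested stem and progenitor markers 5 rose (1 of them, Hlf, below the array medians in GFP_min) and 1 fell. Their mean levels over 10 genes were 5.66 to 5.75 in GFP_plus and 5.40 to 5.45 in GFP_min. In both groups 3 of these genes lay below the array medians. Kit and Gata2, among the 5 that rose, were also counted among the basophil and mast cell markers that rose. Of 11 neutrophil precursor markers 7 rose, where 21.7% of all tested probe sets were called higher. Their mean levels were 12.16 to 12.29 in GFP_plus and 11.40 to 11.48 in GFP_min. Ltf (0.07), Camp (0.06), Ngp (0.03) and Chil3 (0.004) did not pass. The part of stem, progenitor and neutrophil precursor cells in the Itga6 value was not tested.

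Itgav, the alpha chain of the vitronectin receptors that also free active TGF-beta, showed no call in any of its 3 tested probe sets of 5. The brightest (1452784_at) read 9.30, 9.20 and 9.23 in GFP_plus and 9.32, 9.20 and 9.28 in GFP_min. These values were interleaved, and the interval of the difference ran from −0.19 to 0.15 around −0.02 (limma adjusted p = 0.823). The others (1432679_at and 1421198_at, and the untested 1432296_a_at and 1432678_at) lay between 2.37 and 3.78, near the array medians, and 1421198_at passed as lower without GFP_plus replicate a (−0.38, adjusted p = 0.0237). With ribosomal centring the brightest probe set turned to 0.50 and passed (adjusted p = 0.000226), and with poly-A centring it passed as lower (−0.43, adjusted p = 0.00570).

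Itga2b (CD41), the platelet fibrinogen receptor chain that also marks early progenitors, entered the test only through GFP_plus, where it read 3.14, 2.91 and 3.07. In GFP_min it read 2.62, 2.74 and 2.72, below the median of each array. It was therefore at least 1.16-fold higher in GFP_plus (measured difference 0.35, limma adjusted p = 0.0180). Since the filter let it in through the group where it was high, it had to differ, and the p supports nothing further. The call was lost without GFP_plus replicate a (0.30, adjusted p = 0.0652) or GFP_min replicate a (0.31, adjusted p = 0.0680), and the sign turned with poly-A centring (−0.059). Of 4 tested megakaryocyte and platelet markers 3 also rose, with mean levels over 12 genes of 3.23 to 3.29 in GFP_plus and 2.98 to 3.01 in GFP_min. Ppbp, Gp5, Gp6 and Tubb1 lay below the array medians, and the part of such cells was not tested.

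The scale on which the groups are compared moves all of these differences together. Relative to the deposited scale, centring on the median of the tested probe sets shifted the median of all differences by 0.20, centring on ribosomal protein genes by 0.53 and centring on the poly-A control RNAs by −0.41. Differences within that range change sign with the scale, as those of Itgb2, Itgam and Itgav did. Itgax, Itgb7, 1426918_at of Itgb1 and 1422444_at of Itga6 kept sign and call under each scaling. So did 1436037_at and 1421194_at of Itga4, which were smallest with ribosomal centring, at −0.41 and −0.61.

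**Figure D4:**
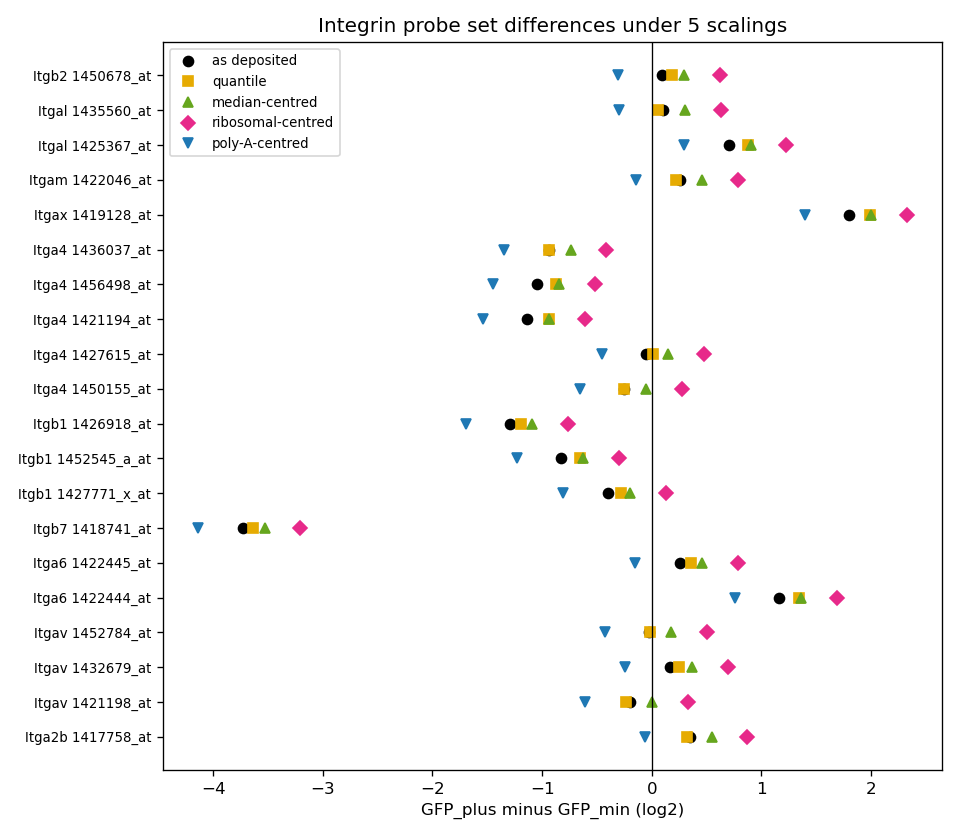
GFP_plus minus GFP_min (log2, horizontal axis) of the 20 tested integrin probe sets under 5 scalings: as deposited, quantile normalized, and centred on the median of tested probe sets, on ribosomal protein genes or on poly-A controls. Itgax and 1422444_at of Itga6 stay above 0, Itgb7, both brighter Itgb1 probe sets and the 3 called Itga4 probe sets stay below it, and Itgb2, Itgam and Itgav fall on both sides.

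Other genes of integrin function. Of 14 other integrin subunits with a probe set, 7 were tested and 2 of these were lower in GFP_plus, with a median difference of −0.09. That is 28.6% called, against 44.6% of all tested probe sets. Itgb5, a partner of Itgav, was 4.31, 4.27 and 4.31 in GFP_plus and 7.05, 7.28 and 7.21 in GFP_min and fell by 2.89 (limma adjusted p = 1.35e-07), on a probe set that may bind other transcripts. Itga1, a collagen receptor chain that pairs with Itgb1, read 2.91, 2.66 and 3.27 in GFP_plus against 5.45, 6.15 and 5.37 in GFP_min and fell by 2.71 (adjusted p = 1.03e-05). Its GFP_plus values lay near the array medians, replicate b below its own, so the size of its fall rests partly on signal at that floor. In both genes the groups lay far apart relative to the spread within them.

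Of 25 tested genes that switch integrins on or tie them to actin, 9 passed as higher and 3 as lower (median difference 0.08). The 48% called lay near the 44.6% of all tested probe sets. Rasgrp2, which activates the small GTPase Rap1 upstream of integrins, rose by 0.76 (10.17 ± 0.06 in GFP_plus and 9.41 ± 0.07 in GFP_min, SD, n = 3 each), the adaptor Fyb by 0.45 and the actin crosslinker Actn1 by 0.41. Parvb, a parvin that binds integrin-linked kinase, was at least 1.74-fold lower, as its GFP_plus values were under the array medians. It entered the test only through GFP_min, where it was high, so its call supports nothing further. Fermt3, the kindlin needed to activate integrins in blood cells, was named after its values were seen, at 12.82 ± 0.02 in GFP_plus and 12.80 ± 0.05 in GFP_min (difference 0.03, limma adjusted p = 0.635), though another of its probe sets was higher by 0.63 (adjusted p = 0.00313). Among 12 tested kinases and exchange factors downstream of integrins, 4 passed as higher and 1 as lower (median 0.08). The 41.7% called here also lay near the share of all tested probe sets. The kinase Syk rose by 0.58, Ptk2b (Pyk2) by 0.63 and the Src family kinase Fgr by 0.55, while the exchange factor Vav2 was at least 2.54-fold lower. Vav2 likewise lay below the median of each GFP_plus array and was tested only through GFP_min, where it was high. Other probe sets gave smaller differences for Rasgrp2 (0.02 to 0.39) and Fyb (0.001), while those of Syk ranged from −0.14 to 0.66. The shift of −0.41 with poly-A centring is as large as the Actn1 rise. In size it exceeds the rises of Flna (0.34), Parvg (0.32), Tln1 (0.31), Pxn (0.27) and Skap2 (0.19). Those of Zyx (0.44) and Fyb (0.45) lay just above it.

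Among the ligands 8 of 17 were tested, and 1 passed as higher and 4 as lower (median difference −0.31). That is 62.5% of only 8 genes, against 44.6% of all tested probe sets. Vcam1, the cellular ligand of Itga4 with Itgb1, rose by 2.02 (7.74 ± 0.04 in GFP_plus and 5.72 ± 0.15 in GFP_min), while its 2 other tested probe sets differed by only 0.57 (limma adjusted p = 0.00818) and 0.16 (not called). The size of its rise therefore depended on the probe set. Fn1, fibronectin, the matrix ligand of the same receptor, fell by 5.23 (7.61 ± 0.08 in GFP_plus and 12.84 ± 0.04 in GFP_min). Icam1 and Icam2, ligands of LFA-1, fell by 2.17 and 1.03. Fn1 is also 1 of the monocyte markers counted above, and Vcam1 is a marker of marrow macrophages. Of the 9 tested macrophage markers 5 rose, Vcam1 itself among them, and 2 fell. Those that fell were Adgre1 (−1.43) and Axl, which lay below the array medians in GFP_plus. Mean levels over the 12 genes, Vcam1 included, were 4.56 to 4.72 in GFP_plus and 4.33 to 4.48 in GFP_min. The count and the mean are thus not independent of the Vcam1 value, and the part of macrophages in it was not tested.

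For the 3 genes whose brightest probe set was called and differed by at least 1 log2, the other tested genes with the most similar values were found by the root mean square distance over the 6 arrays, each probe set centred on its own mean. Nearest to Itgax were Ccnd2 (distance 0.07 log2), Carns1 (0.15) and Csf1 (0.15), which differed by 1.85, 1.55 and 1.63. Csf1 was also counted among the basophil and mast cell markers that rose. Nearest to Itgb7 were Sestd1 (0.05), Npc2 (0.10) and Tmem176a (0.12), all lower in GFP_plus. Tmem176a lay below the median of each GFP_plus array, so it was at least 11.8-fold lower and its distance rests partly on signal that is not above that floor, as may that of Sestd1, which lay below it on 2 GFP_plus arrays. Npc2 differed by −3.74. Nearest to Itgb1 were Cd99 (0.05), Pop5 (0.06) and Adgre1, the F4/80 antigen (0.08), with differences of −1.29, −1.30 and −1.43. Adgre1 was also counted among the macrophage markers that fell. With 2 groups of 3 arrays, such likeness reflects mainly the size of the group difference. One sign of RNA quality also differed between the groups: the gap between 3' and 5' signal of the Gapdh controls was 0.64 in GFP_plus and 0.31 in GFP_min on average, without overlap (exact permutation p = 0.1), and that of beta-actin was 0.87 in GFP_plus and 0.81 in GFP_min (p = 0.2). Its part in the disagreement between probe sets of Itgal, Itga4 and Itga6 was not tested.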

How the data were processed

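Per the labels' protocols, total RNA (RNeasy Micro kit) was labelled with a 3' IVT kit for the arrays. The authors deposited 1 table of log2 values for 45101 probe sets on 6 arrays, which was used as deposited. GCRMA is the tool that the submitters' processing notes name, with neither version nor settings stated there. Their range fits a log2 scale, which no header states. No detection calls were used here, so the median of each array served as the floor for dim signals.

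Samples were grouped by title. Names of probe sets are those of the platform annotation, where 34958 had 1 symbol and 932 several, and symbols outside the 10 members were updated through a RefSeq table (GRCm38.p6) that held the gene IDs of 34754. Tests covered the 22956 probe sets that were above the array median on at least 3 of 6 arrays, with 64 controls left out. GFP_plus minus GFP_min was fitted with limma 3.58.1 in R 4.3.3 (lmFit, eBayes with an intensity trend), adjusted over all tested probe sets by Benjamini-Hochberg at 0.05, after a check on simulated data. Where a group lay below the median on each of its arrays, folds are bounds against those medians. A listed gene is represented by its brightest tested probe set, and mean marker levels use the brightest probe set of every gene on the array. Named are all members, up to 4 genes per list by adjusted p, and the 3 nearest genes of each member changed by at least 1 log2. Fermt3, Flna, Parvg, Tln1, Pxn, Skap2, Zyx and all marker genes were named after their values were seen. The members and lists were chosen with earlier results of these data known. Exact permutation tests of 3 against 3 cannot go below 0.1. The main fit did not pair the samples by replicate letter. Deviations of same-lettered arrays correlated at −0.18, −0.30 and −0.22, which cannot show whether a letter stands for a shared animal or sort. Promoter sequences are RefSeq's, and protein sequences were not used here. The number of arrays limits the precision. Figures used matplotlib 3.10.9 in Python 3.11.15.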

Additional observations from a re-analysis of the deposited data

How the results depend on the processing

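Of the 10 called integrin probe sets, 5 kept direction and call under all 16 alternatives at the level of probe sets (Itgax, Itgb7, 1426918_at of Itgb1, 1421194_at of Itga4 and 1422444_at of Itga6), and 6 did with the size threshold of 1 log2 left aside, the further one being 1436037_at of Itga4. Against 4 higher and 6 lower calls, array weights gave 7 and 7, quantile normalization 6 and 5, median centring 9 and 5, ribosomal centring 11 and 4, poly-A centring 2 and 13, and the size threshold 2 and 4. The share of all tested probe sets called in these settings was 48.9%, 47.1%, 58.1%, 79.8%, 55.6% and 8.72%, against 70%, 55%, 70%, 75%, 75% and 30% of the integrin probe sets. Higher calls made up 48.6% of all calls on the deposited scale, 56.9% after quantile normalization, 73.0% with median centring, 88.9% with ribosomal centring and 8.53% with poly-A centring, over 10231 calls on the deposited scale (4971 higher and 5260 lower). Among all tested probe sets, 9734 were higher with median centring, 16286 higher and 2032 lower with ribosomal centring, and 1089 higher and 11685 lower with poly-A centring. With poly-A centring limma's prior had 593 degrees of freedom, against 5.79 on the deposited scale, so its p-values lean on the spread pooled over probe sets. The mean of a gene's tested probe sets gave 5 higher and 3 lower of 10 genes, Itgb2 included, on 10 values in place of 20, where 51.3% of all 10810 genes were called. Leaving out each sample in turn gave 3 to 4 higher and 5 to 7 lower calls. These were 45% to 55% of the integrin probe sets, where 36.9% to 40.3% of all tested probe sets were called. In each case 8 of the 10 calls held, 1456498_at of Itga4 and Itga2b being the exceptions. With the replicate block there were 4 higher and 5 lower calls, the lost one being 1456498_at of Itga4 (adjusted p = 0.0515), and 3844 higher and 4547 lower over all tested probe sets. That is 45% of the integrin probe sets and 36.6% of all tested probe sets.

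Signs turned only in probe sets not called on the deposited scale, apart from Itga2b. With quantile normalization 1427615_at of Itga4 turned to 0.0086, and without single samples it ranged from −0.19 to 0.061, above 0 without GFP_min replicate a (0.061) or GFP_plus replicate b (0.044). With median centring it turned to 0.15, and 1452784_at and 1421198_at of Itgav to 0.18 and 0.0025. With ribosomal centring these 3 turned to 0.47, 0.50 and 0.33, 1450155_at of Itga4 to 0.27 and 1427771_x_at of Itgb1 to 0.13. With poly-A centring Itgam turned to −0.15, 1435560_at of Itgal to −0.30, Itgb2 to −0.31, 1432679_at of Itgav to −0.24, 1422445_at of Itga6 to −0.15 and Itga2b to −0.059. The cause was not tested. The within-array change of Itgal against Itgam turned to 0.14 with the mean of a gene's probe sets and ranged from −0.32 to −0.05 without single samples. In the same way Itgax against Itgal ranged from 1.55 to 1.79, Itgax against Itgam from 1.45 to 1.61 and Itgb7 against Itgb1 from −2.54 to −2.24. The Gapdh and beta-actin gaps ranged from 0.29 to 0.35 and from 0.04 to 0.09. Signals near the array medians limit what can be said of Itga2b and of the dim probe sets of Itgav, Itga4 and Itgb1.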
